A study of Mus musculus with 9 samples.

Results

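The 10 genes described here form a set on calcium and magnesium handling in the distal nephron: Trpv5, Calb1, S100g, Pvalb, Slc8a1, Trpm6, Trpm7, Tmem207, Cldn16 and Casr. They were found by gene symbol, through the RefSeq accession of each array probe, among the 32301 genes with a probe. All 10 were among the 17742 genes that passed the detection filter, and 13 probes stand for them. Where a gene had several probes, the one shown first was selected by its measured brightness, the mean level over all 9 arrays. That choice mattered only for Slc8a1, which has 4 probes. The set was drawn up with earlier results of these arrays known, the changes of Trpv5, Pvalb and Tmem207 among them, so the counts over the 10 genes describe the set and are not independent evidence of a direction.

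Whole left kidneys of 9 male mice aged 10 weeks were profiled, 1 array to a kidney, in 3 groups. In the Clip group (n = 3) a vascular clip had closed the left ureter for 2 days. In the ClipR-14 group (n = 3) the ureter had been closed for 2 days and the clip had then been off for 12 days. The control group (n = 3) joined 2 sham-treated kidneys (Sham 1 and Sham 2) with 1 untreated kidney (Untreated 1), and on which day these were taken is not given in the sources used here. All 9 mice, controls included, had the genotype ISAM (Epo–/–::3.3K-Epo3'-Tg458) on a mixed strain background, a model of anaemia through lack of erythropoietin: they have no working Epo gene of their own and carry an Epo transgene. Every value below is therefore from an ISAM kidney, with no kidney of wild-type mice beside it, and the cells that express the transgene are not given in the sources used here. No label ties kidneys to litters or operation days.

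The distal convoluted tubule and the connecting tubule set how much calcium and magnesium is lost in urine. Calcium enters their cells from the lumen through the channel Trpv5, is carried across the cell bound to the calbindins Calb1 and S100g, and leaves on the blood side through the sodium-calcium exchanger Slc8a1 and calcium pumps. Magnesium enters the cells of the distal convoluted tubule through Trpm6, a channel fused to a kinase, and its relative Trpm7. Upstream, in the thick ascending limb, both ions pass between the cells through pores that contain the claudin Cldn16, and the calcium-sensing receptor Casr on the blood side restrains that route.

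The promoters of 4 genes are shown: Trpv5 and its neighbour Trpv6 were higher in Clip kidneys, while S100g and Tmem207 were lower. They are also the only windows, among those of the members and Trpv6, that held a match to the motifs searched. The matches are therefore not typical of the set. Each line gives the 250 bases before the RefSeq gene start (build GRCm38.p6), 5′ to 3′ on the strand of the gene. Capitals mark matches to the motifs searched.
Trpv5: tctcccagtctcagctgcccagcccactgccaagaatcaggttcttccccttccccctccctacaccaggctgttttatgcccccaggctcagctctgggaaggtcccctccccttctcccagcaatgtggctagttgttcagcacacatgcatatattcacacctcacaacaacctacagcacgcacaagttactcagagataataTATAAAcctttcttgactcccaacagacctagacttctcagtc
Trpv6: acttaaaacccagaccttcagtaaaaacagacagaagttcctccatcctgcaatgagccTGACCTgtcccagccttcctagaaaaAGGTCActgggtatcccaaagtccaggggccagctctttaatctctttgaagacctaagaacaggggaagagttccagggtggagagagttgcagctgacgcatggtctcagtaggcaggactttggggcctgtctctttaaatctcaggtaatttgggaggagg
S100g: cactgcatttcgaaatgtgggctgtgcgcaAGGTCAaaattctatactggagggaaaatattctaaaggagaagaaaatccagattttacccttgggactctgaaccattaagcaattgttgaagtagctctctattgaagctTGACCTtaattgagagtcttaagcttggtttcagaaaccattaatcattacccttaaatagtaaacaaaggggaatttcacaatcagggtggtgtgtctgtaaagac
Tmem207: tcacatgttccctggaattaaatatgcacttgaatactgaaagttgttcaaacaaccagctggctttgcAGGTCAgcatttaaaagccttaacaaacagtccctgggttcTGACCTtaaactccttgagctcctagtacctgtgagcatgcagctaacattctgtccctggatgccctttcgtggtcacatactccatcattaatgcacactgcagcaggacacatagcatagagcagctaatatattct
These windows are chr6:41680724-41680973 for Trpv5, chr6:41636406-41636655 for Trpv6, chrX:162964600-162964849 for S100g and chr16:26526772-26527021 for Tmem207, all on the minus strand. The letters searched, each on both strands, belong to 4 kinds of site. The first is a TATA box, TATAAA. The Trpv5 window held 1 of these, with its first base at -43 from the gene start, and 12.4% of all 32851 promoter windows of this length held at least 1. The second is AGGTCA, a half-site of nuclear receptors, the class that includes the vitamin D receptor. It occurred on either strand at -191 and -165 in Trpv6, at -220 and -107 in S100g and at -181 and -140 in Tmem207, and 4607 of the 32851 windows held at least 1. The AP-1 site TGANTCA occurred in none of the 4 windows and in 6.75% of all windows. The same held for GTTAAT, a half-site of HNF1 factors, which occurred in 6.43% of all windows. No match overlapped another. Of the 10 genes, 9 had a promoter entry and Calb1 had none. The windows of the other members, Pvalb, Slc8a1, Trpm6, Trpm7, Cldn16 and Casr, held no match to any of these letters. A match describes the letters only.

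Levels are given as log2 of the background-subtracted spot signal over that array's 75th percentile, so 0 is the 75th percentile. Each array had 52.0% to 57.5% of its probes well above background, the scanner software's own flag, and no spot was saturated. Probes differ in efficiency, so the levels of different genes are not set against each other. Tests came from a limma fit over all genes with Benjamini-Hochberg adjustment (threshold 0.05), errors beside changes are standard errors of that fit, and n = 3 kidneys in each group throughout. P-values measure only the spread between these kidneys, each read on 1 array. Obstruction moved much of the transcriptome: 48.9% of all genes tested passed the threshold in Clip against control. In ClipR-14 against Clip 41.0% did. In ClipR-14 against control 1.83% did, 325 genes, and that count is unstable: leaving out any 1 array but Untreated 1 lowered it by over 1.5 times, to 2 higher and 0 lower without ClipR-14 2 and to 10 higher and 6 lower without Sham 2. Under another background correction (normexp) 0 were higher and 1 lower, with only the 2 groups in the fit 0 passed, and with slide as a block 751 were higher and 412 lower. At an unadjusted p under 0.05 the limma fit gave 3811.

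Of the 10 genes, 9 were lower in Clip kidneys than in control kidneys and 1, Trpv5, was higher, and all 10 passed the test. Pvalb and Tmem207 passed the detection filter only through control and ClipR-14 kidneys, where they were high. Their calls and p-values are thus descriptions and no support for the count of 9, which includes them, as does the median below. Among genes well above background on all 9 arrays, which leaves out these and Trpv5, 7 members were lower and 0 higher. Of the 15127 genes under that filter, 4650 were lower and 3120 higher. Over all genes tested, 27.5% were called lower and 21.4% higher (4887 and 3789 genes). This balance of the background turns with quantile normalization, to 4039 lower and 4544 higher. The groups did not overlap for any of the 10, as for 58.6% of all genes. Their median log2 difference was -1.96, beside -0.09 over all genes tested. The plot of levels by array shows both directions.

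**Figure D1:**
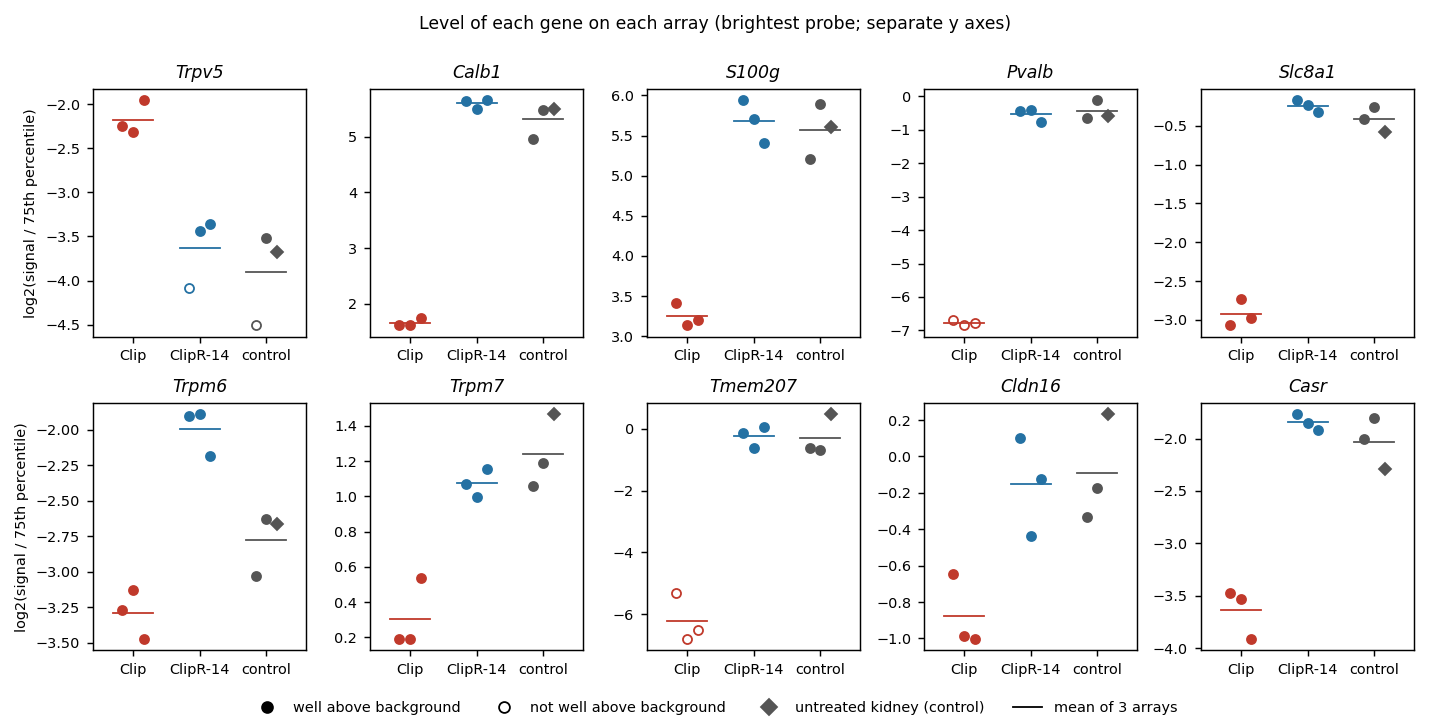
Log2 level of the brightest probe of each of the 10 genes (y axes, one scale to a panel) on each of the 9 arrays, grouped as Clip, ClipR-14 and control (x axes); lines are means of 3 arrays, open symbols are spots not well above background and diamonds the untreated kidney. The 3 Clip points lie below all other points for 9 genes and above them for Trpv5.

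The epithelial channel Trpv5, the gate of calcium entry, was the 1 member that rose. Its level was -2.25, -2.32 and -1.96 in the 3 Clip kidneys and -4.09, -3.44 and -3.35 in the 3 ClipR-14 kidneys, against -4.51 in Sham 1, -3.52 in Sham 2 and -3.67 in Untreated 1. All Clip kidneys lay above all others, while ClipR-14 and control kidneys overlapped. ClipR-14 1 and Sham 1, the lowest of their groups, were not well above background. Trpv5 was 3.31-fold higher in Clip than in control kidneys (log2 1.73 ± 0.29, adjusted p = 0.00126), and under normexp the difference was 1.03, past the threshold. It was 2.74-fold lower in ClipR-14 than in Clip kidneys (-1.45 ± 0.29, adjusted p = 0.00409). Between ClipR-14 and control kidneys the difference was 0.27, with a 95% interval of -0.38 to 0.93.

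The cytosolic calcium binders moved the other way. Calb1, the large calbindin of the distal convoluted and connecting tubule, was measured by 10 spots per array, whose SD on an array was 0.05 to 0.18 on the log2 scale. Its level was 1.62, 1.62 and 1.74 in Clip kidneys and 5.63, 5.49 and 5.65 in ClipR-14 kidneys, against 4.96, 5.47 and 5.49 in Sham 1, Sham 2 and Untreated 1. The Clip kidneys were thus the low group, and the ClipR-14 kidneys all lay just above the highest control. Calb1 fell 12.5-fold in Clip kidneys relative to control kidneys (-3.65 ± 0.15, adjusted p = 1.39e-06). In ClipR-14 kidneys it was 15.3-fold higher than in Clip kidneys (3.93 ± 0.15, adjusted p = 1.85e-06). The ClipR-14 against control difference of 0.29 (95% interval -0.05 to 0.62) did not pass (adjusted p = 0.301).

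S100g, the small calbindin of the same segments and of the gut, followed the same order with a smaller range. Clip kidneys had levels of 3.42, 3.14 and 3.21 and ClipR-14 kidneys 5.94, 5.70 and 5.40, against 5.21, 5.90 and 5.61 in Sham 1, Sham 2 and Untreated 1. Only the Clip kidneys stood apart. S100g was 4.98-fold lower in Clip than in control kidneys (-2.32 ± 0.20, adjusted p = 3.58e-05) and 5.38-fold higher in ClipR-14 than in Clip kidneys (2.43 ± 0.20, adjusted p = 4.36e-05). Its ClipR-14 against control difference was 0.11 (95% interval -0.34 to 0.56).

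Pvalb encodes parvalbumin, a calcium buffer that in the kidney marks the early distal convoluted tubule. Its signal in Clip kidneys was not well above background on any array, at -6.69, -6.85 and -6.79. ClipR-14 kidneys had -0.45, -0.41 and -0.77, and control kidneys -0.65, -0.12 and -0.58 in Sham 1, Sham 2 and Untreated 1. Where a whole group is not well above background, only a bound is given: the mean of the brighter group against a floor in the dimmer group. The floor on an array is the dimmest signal that still carried the flag, or the gene's own signal if that was higher, and the floors of the 3 arrays were averaged. By this bound Pvalb was at least 17.8-fold lower in Clip than in control kidneys (fitted log2 -6.33 ± 0.16, adjusted p = 5.73e-07). It was at least 16.7-fold higher in ClipR-14 than in Clip kidneys (fitted log2 6.23 ± 0.16, adjusted p = 8.17e-07). Under normexp the fitted change in Clip kidneys was -1.62, smaller than the bound and still past the threshold. Normexp adds an offset of 50 to every signal, which makes changes of dim genes smaller, so it is no test of the bound.

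Slc8a1 encodes the sodium-calcium exchanger that moves calcium out on the blood side; it is also abundant in heart and smooth muscle. Its brightest probe read -3.07, -2.74 and -2.98 in Clip kidneys and -0.17, -0.23 and -0.33 in ClipR-14 kidneys, against -0.41, -0.26 and -0.58 in Sham 1, Sham 2 and Untreated 1. The Clip kidneys were again the separate, low group. Slc8a1 was 5.69-fold lower in Clip than in control kidneys (-2.51 ± 0.12, adjusted p = 3.29e-06), and 6.43-fold higher in ClipR-14 than in Clip kidneys (2.68 ± 0.12, adjusted p = 3.72e-06). Under normexp the change in Clip kidneys was -1.11, past the threshold.

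The 2 Slc8a1 probes well above background on all 9 arrays shared the direction and differed in size, as the plot of its probes shows. The second brightest, A_52_P562704, gave a change of -1.67 ± 0.16 in Clip against control (3.18-fold lower, adjusted p = 6.9e-05 in the fit of all probes). A_52_P231461 was well above background on 3 arrays only, those of Untreated 1, ClipR-14 2 and ClipR-14 3, and since it passed the filter through those groups its difference is not counted here. A_51_P191448 was not well above background on any array and was not tested. Where on the transcript each probe lies is not given in the files.

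**Figure D2:**
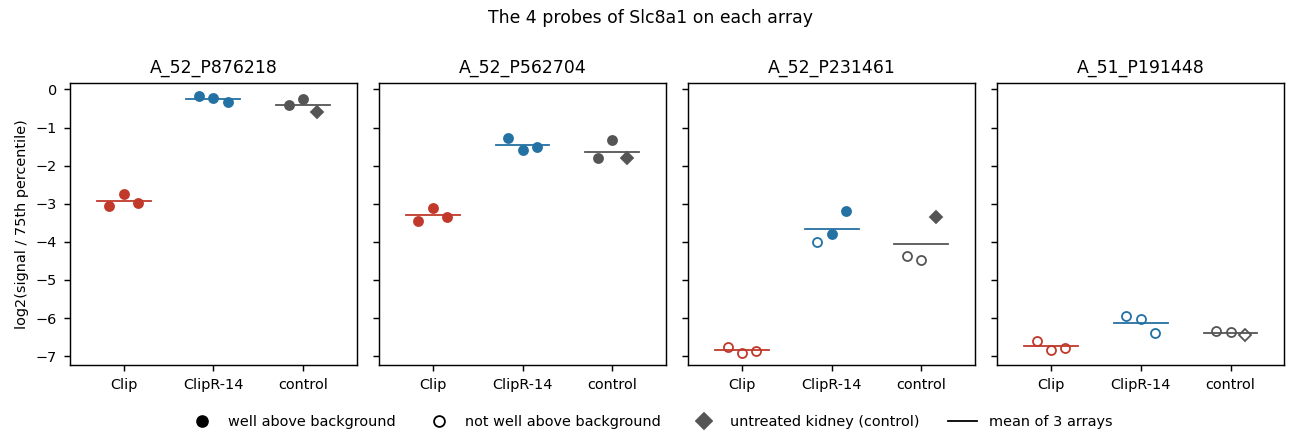
Log2 level of the 4 probes of Slc8a1 (one panel each, shared y axis) on the 9 arrays, grouped as Clip, ClipR-14 and control; lines are means of 3 arrays and open symbols are spots not well above background. The 2 probes read on all arrays show Clip kidneys below both other groups, with differences of -2.51 and -1.67 against control.

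On the magnesium side, the changes in Clip kidneys were small for both channels. Trpm6, the magnesium channel of the distal convoluted tubule, read -3.27, -3.13 and -3.47 in Clip kidneys and -1.91, -1.89 and -2.18 in ClipR-14 kidneys, against -3.03, -2.63 and -2.67 in Sham 1, Sham 2 and Untreated 1. No groups overlapped: ClipR-14 kidneys were highest, control kidneys lay between, and Clip kidneys were lowest. The highest Clip kidney, at -3.13, lay next to the lowest control, at -3.03. In Clip kidneys Trpm6 was 1.43-fold lower than in control kidneys (-0.52 ± 0.15, adjusted p = 0.0199), a call that was lost without Sham 2 (adjusted p = 0.0693), Untreated 1 (0.0573) or Clip 3 (0.065). ClipR-14 kidneys had 2.46-fold more than Clip kidneys (1.30 ± 0.15, adjusted p = 0.000257).

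Trpm6 was also the 1 member called in ClipR-14 against control, where 1.46% of all genes were called higher and 0.372% lower (259 and 66 genes, a background as unstable as given above). It was 1.72-fold higher in ClipR-14 kidneys (0.78 ± 0.15, 95% interval 0.44 to 1.12, adjusted p = 0.0452), and the difference within the 3 slides that each carried 1 array of every group was 1.13, 0.74 and 0.48. The call is fragile: it was lost when any 1 of the 9 arrays was left out (adjusted p = 0.0549 to 0.159) and in 5 further alternatives, while the difference stayed positive in all 19. Of these 5, Sham alone as control is the same fit as leaving out Untreated 1. Under normexp, all 3 Trpm6 comparisons missed the threshold, with changes of 0.27 in Clip against control (sign reversed), 0.38 in ClipR-14 against control and 0.11 in ClipR-14 against Clip.

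Trpm7, the close relative of Trpm6 that most cell types express, fell in Clip kidneys by a modest amount. Its level was 0.19, 0.19 and 0.54 in Clip kidneys and 1.07, 0.996 and 1.15 in ClipR-14 kidneys, against 1.06, 1.19 and 1.47 in Sham 1, Sham 2 and Untreated 1. Trpm7 was 1.91-fold lower in Clip than in control kidneys (-0.93 ± 0.14, adjusted p = 0.000716) and 1.70-fold higher in ClipR-14 than in Clip kidneys (0.77 ± 0.14, adjusted p = 0.00271). Both calls held in all 19 alternatives. Where Trpm6 in ClipR-14 kidneys exceeded control, Trpm7 had a difference of -0.17 (95% interval -0.48 to 0.15), with overlapping groups.

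Tmem207, a membrane protein gene of little known function, is the next protein-coding gene to Cldn16 in the RefSeq annotation. Like Pvalb, it was not well above background in any Clip kidney, with signals of -5.32, -6.80 and -6.50. ClipR-14 kidneys had levels of -0.13, -0.63 and 0.06, and Sham 1, Sham 2 and Untreated 1 had -0.63, -0.70 and 0.48. The untreated kidney was the highest of the 9. Tmem207 was at least 20.0-fold lower in Clip than in control kidneys (fitted log2 -5.92 ± 0.44, adjusted p = 1.83e-05). It was at least 20.7-fold higher in ClipR-14 than in Clip kidneys (fitted log2 5.97 ± 0.44, adjusted p = 2.73e-05). Under normexp the fitted change in Clip kidneys was -1.61, still past the threshold.

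Its neighbour Cldn16, the claudin of the calcium and magnesium pore of the thick limb, changed by a smaller amount. Clip kidneys had -0.65, -0.99 and -1.004 and ClipR-14 kidneys 0.10, -0.44 and -0.12, against -0.33, -0.17 and 0.23 in Sham 1, Sham 2 and Untreated 1. The Clip kidneys lay below all others, and the other groups overlapped. Cldn16 was 1.73-fold lower in Clip than in control kidneys (-0.79 ± 0.19, adjusted p = 0.00926), and 1.66-fold higher in ClipR-14 than in Clip kidneys (0.73 ± 0.19, adjusted p = 0.0164). The return was not called without Clip 2 (adjusted p = 0.0575), Clip 3 (0.0533) or ClipR-14 1 (0.0564). Neither Cldn16 difference passed under normexp (-0.45 in Clip against control, 0.41 in ClipR-14 against Clip).

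Casr, the calcium-sensing receptor, is in the kidney most abundant in the thick limb. It read -3.47, -3.53 and -3.91 in Clip kidneys and -1.77, -1.85 and -1.92 in ClipR-14 kidneys, against -2.004, -1.80 and -2.29 in Sham 1, Sham 2 and Untreated 1. The Clip group was well separated and the others overlapped. Casr was 3.04-fold lower in Clip than in control kidneys (-1.61 ± 0.16, adjusted p = 7.44e-05) and 3.47-fold higher in ClipR-14 than in Clip kidneys (1.79 ± 0.16, adjusted p = 6.34e-05). Casr was dim, and under normexp both differences missed the threshold (-0.21 in Clip against control, 0.31 in ClipR-14 against Clip).

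With the clip off for 12 days, 1 of the 10 genes was called different from control, while all 10 differed from the Clip kidneys. Relative to Clip kidneys, ClipR-14 kidneys were higher for 9 genes and lower for Trpv5, all 10 past the threshold with no overlap. Pvalb and Tmem207 are counted here too, with the limit given above on how they passed the filter. Among genes well above background on all 9 arrays, 7 members were higher and 0 lower, beside 3971 higher and 2641 lower of the 15127 genes under that filter. Of all genes, 23.5% were called higher, 17.4% lower, and 54.8% did not overlap. Quantile normalization turns this balance too, from 4178 higher and 3092 lower to 3535 higher and 3832 lower. The members' median difference was 2.11, beside 0.08 over all genes. These counts share the Clip kidneys with the comparison against control and are not independent of it.

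Against control, 9 members did not pass in ClipR-14 kidneys (adjusted p = 0.301 to 0.958), and none of these 9 reached an unadjusted p of 0.05 in the limma fit. Their 95% intervals leave room for differences: -0.96 to 1.06 for Tmem207, -0.38 to 0.93 for Trpv5, -0.50 to 0.38 for Cldn16, -0.46 to 0.27 for Pvalb, -0.17 to 0.55 for Casr and -0.11 to 0.45 for Slc8a1. Groups did not overlap for 2 of 10 members, Calb1 and Trpm6, where 27.2% of all genes did not overlap. The median member difference was 0.14, beside -0.01 over all genes.

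**Figure D3:**
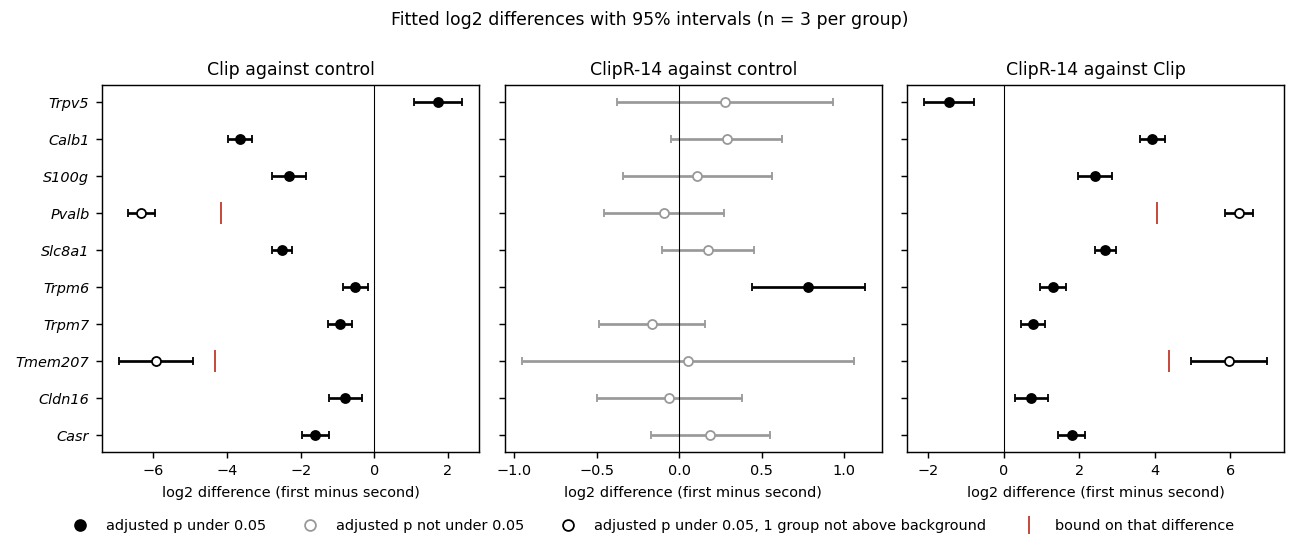
Fitted log2 differences (x axes, first group minus second; the scale differs between panels) of the 10 genes in the 3 comparisons, with 95% intervals; filled circles passed an adjusted p of 0.05 and red ticks are the bounds of Pvalb and Tmem207. In Clip against control 9 genes lie left of 0 and Trpv5 right of it at 1.73, while in ClipR-14 against control only Trpm6, at 0.78, passed.

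The slides are the batches the files name, and each held 1 array of every group. Within all 3 slides each of the 10 genes had the same sign of difference in Clip against control and in ClipR-14 against Clip. Since the groups did not overlap for any of the 10 in these comparisons, equal signs had to follow and are no further check. The Clip against control difference within slides had its widest range for Tmem207 (-4.69, -6.11 and -6.98), followed by Trpv5 (2.26, 1.20 and 1.72), S100g (-1.79, -2.76 and -2.40) and Cldn16 (-0.31, -0.81 and -1.24). For Trpm7 it was -0.87, -0.999 and -0.93, the narrowest of the 10. In ClipR-14 against control, 4 of the 10 genes kept 1 sign over the slides.

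Other genes of calcium and magnesium transport were counted in 4 lists with 43 genes, of which 38 were tested. In Clip against control, 6 were higher and 17 were lower, beside 21.4% and 27.5% of all genes tested. In ClipR-14 against control, 1 was higher and none was lower in the limma fit, beside 1.46% and 0.372% of all genes. At an unadjusted p under 0.05 in that fit, 5 were higher and 3 lower, beside 3811 of the 17742 genes tested in either direction. In ClipR-14 against Clip, 16 were higher and 7 lower, beside 23.5% and 17.4% of all genes. The shares in Clip against control also stand behind the counts of each list and of cell type markers below. Counts near these shares are not a result about a list.

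Among 6 tested genes of calcium exit and other calcium transport, 3 rose and 1 fell in Clip kidneys, with a median difference of 0.65. Trpv6, the second epithelial calcium channel and the neighbour of Trpv5, had levels of 0.57, 0.56 and 0.41 in Clip kidneys and -1.80, -1.85 and -1.98 in ClipR-14 kidneys, against -2.85, -2.62 and -2.48 in Sham 1, Sham 2 and Untreated 1. The 3 groups did not overlap. Trpv6 was 8.94-fold higher in Clip than in control kidneys (3.16 ± 0.12, adjusted p = 1.23e-06; under normexp 2.08, past the threshold), so both epithelial calcium channels were higher in Clip kidneys while the calbindins and Slc8a1 were lower. It was still 1.71-fold higher in ClipR-14 than in control kidneys (0.77 ± 0.12, adjusted p = 0.0295). That last call was lost in 10 of 19 alternatives, normexp among them (0.34, adjusted p = 0.494), and when any array but Untreated 1 or Clip 3 was left out.

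Anxa2, which with its partner S100a10 brings epithelial calcium channels to the cell surface, was 4.18-fold higher in Clip kidneys (2.06 ± 0.16, adjusted p = 2.1e-05). In ClipR-14 against control Anxa2 had a difference of 0.70 that did not pass (adjusted p = 0.0614), though the groups did not overlap. It was called with slide, scan date or replicate number as a block and with the filter on all 9 arrays (lowest adjusted p = 0.0396). S100a10 rose as well, with a difference of 1.10 (adjusted p = 0.00012). The calcium pump Atp2b2 was 3.94-fold lower in Clip than in control kidneys (-1.98 ± 0.57, adjusted p = 0.0197), with a wide spread on each side: -3.61, -3.73 and -2.15 in Clip kidneys against -1.74, -1.68 and -0.14 in Sham 1, Sham 2 and Untreated 1. The highest value of each group, Clip 3, Untreated 1 and ClipR-14 3 (-0.89), came from the same slide. The Atp2b2 call was lost in 5 of 19 alternatives, among them normexp (-0.50) and those without Untreated 1, Clip 1 or Clip 2. Sham alone as control, also among the 5, is the same fit as the one without Untreated 1. Over all alternatives its limma adjusted p ran from 5.73e-05 to 0.27. The pump Atp2b1 had a difference of 0.20 that did not pass (adjusted p = 0.191).

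Among 15 tested genes of magnesium transport and its regulators, 1 rose and 5 fell in Clip kidneys, with a median of -0.17. Egf, whose product raises Trpm6 activity, was 125-fold lower in Clip than in control kidneys (-6.97 ± 0.10, adjusted p = 1.91e-08). Its levels were -0.85, -0.93 and -0.87 in Clip kidneys, against 5.93, 6.11 and 6.22 in Sham 1, Sham 2 and Untreated 1. Its receptor Egfr was 1.56-fold higher (0.64 ± 0.10, adjusted p = 0.00102), a call lost under normexp (0.41, adjusted p = 0.0945). Kcnj10, the potassium channel on the blood side of the distal convoluted tubule, was 3.19-fold lower (-1.67 ± 0.17, adjusted p = 7.7e-05). The other 3 that fell were Pcbd1 (-1.60), Fxyd2 (-1.004) and Cnnm4 (-0.87).

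Of 7 tested genes of the paracellular route of the thick limb, 2 rose and 4 fell in Clip kidneys, with a median of -1.28. Slc12a1, the sodium-potassium-chloride cotransporter that sets up the voltage for this route, was 11.4-fold lower in Clip than in control kidneys (-3.51 ± 0.12, adjusted p = 1.15e-06). Bsnd, the chloride channel subunit barttin, was 3.35-fold lower (-1.75 ± 0.22, adjusted p = 0.000252), a call lost under normexp (-0.74, adjusted p = 0.0525). Cldn14, a claudin known to block the Cldn16 pore, was 4.13-fold higher in Clip than in control kidneys (2.04 ± 0.27, adjusted p = 0.000382) and was well above background on 2 of 3 control arrays. Under normexp its change was 1.02, past the threshold. The barrier claudin Cldn3 was 2.24-fold higher (1.17 ± 0.11, adjusted p = 5.9e-05). Cldn19, the partner of Cldn16 in the pore, had a difference of 0.30 that did not pass (adjusted p = 0.164).

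None of the 10 tested calciotropic hormone receptors and enzymes rose in Clip kidneys and 7 fell, with a median of -0.86. Klk1, tissue kallikrein, which keeps Trpv5 at the cell surface, was 6.34-fold lower in Clip than in control kidneys (-2.66 ± 0.33, adjusted p = 0.00027). Kl, or klotho, the co-receptor for the phosphate hormone of bone, was 4.35-fold lower (-2.12 ± 0.15, adjusted p = 1.33e-05). Vdr, the vitamin D receptor, had a difference of -1.19 (adjusted p = 2.28e-05). Pth1r, the receptor of parathyroid hormone, had -0.32 and did not pass (adjusted p = 0.108). In ClipR-14 against control, none of these 10 genes passed in the limma fit, and 1, Vdr, was lower at an unadjusted p under 0.05. Beside the 3811 of 17742 genes at that threshold, this is no result about the list.

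**Figure D4:**
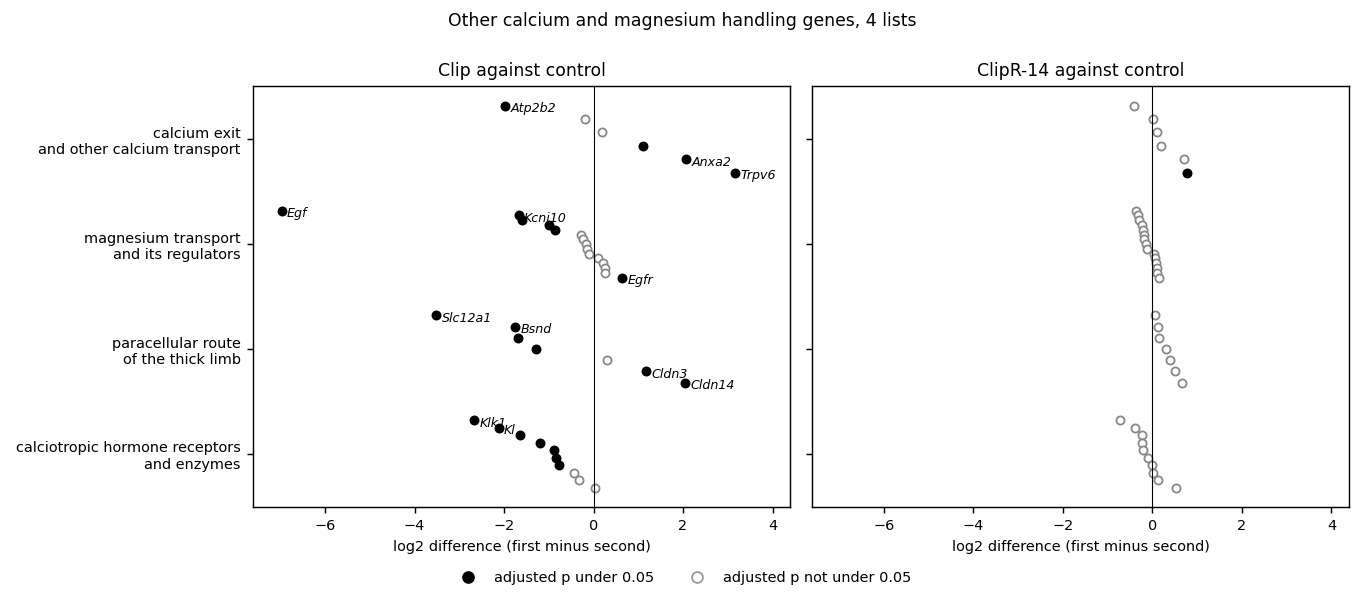
Fitted log2 differences (x axes, first group minus second) of the 38 tested genes of 4 lists (rows) in Clip against control and in ClipR-14 against control; filled circles passed an adjusted p of 0.05, and the genes named by rule are labelled. Clip kidneys differ in both directions, with Egf at -6.97 and Trpv6 at 3.16 as the ends, while in ClipR-14 against control Trpv6 alone passed in the fit shown, and Anxa2 too with slide as a block.

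Most markers of tubule cell types were lower in Clip kidneys, as were 9 of the 10 members, while Trpv5 and its neighbour Trpv6 were higher. All 6 tested markers of the distal convoluted tubule, Egf included, were lower in Clip kidneys, with a summed level (linear, in units of the array's 75th percentile) of 9.69 to 10.3 in Clip kidneys and 91.3 to 104 in ClipR-14 kidneys, against 93.2 to 108 in control kidneys. Egf makes up most of that sum outside the Clip kidneys. The other 5 markers summed to 9.15 to 9.74 in Clip kidneys and 38.0 to 41.3 in ClipR-14 kidneys, against 30.4 to 39.1 in control kidneys, and the median change of the 6 in Clip against control was -1.46. Of the connecting tubule and principal cell markers, 7 of 10 were lower in Clip kidneys, as were 7 of 8 thick limb, 6 of 7 proximal tubule and 4 of 5 intercalated cell markers. No marker of these 5 lists was higher, by adjusted or unadjusted p (limma). Some markers, among them Egf, Slc12a1, Bsnd and Klk1, are also in the lists above. In whole-kidney RNA, fewer cells of a type and less RNA of a gene per cell cannot be told apart, so the values above do not place a change in a segment.

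Cell types outside the tubule that hold members were looked at too. Of 7 markers of skeletal muscle, a tissue rich in Pvalb, Ckm, Myh4 and Myh1 were not well above background on any array. The 3 that were tested (against control, 1 higher and 2 lower in Clip kidneys) summed to 0.183 to 0.206 in Clip kidneys and 0.187 to 0.287 in ClipR-14 kidneys, against 0.214 to 0.237 in control kidneys. Smooth muscle markers, relevant to Slc8a1, summed to 81.4 to 138 in Clip kidneys and 25.1 to 26.4 in ClipR-14 kidneys, against 18.6 to 26.5 in control kidneys, with 4 of 6 higher in Clip kidneys while Slc8a1 was lower. Acta2 and Tagln make up most of that sum. Myh11 (-0.02, limma adjusted p = 0.968) and Cnn1 (0.44, adjusted p = 0.384) did not pass in Clip against control. Leukocyte markers, relevant to Trpm7, summed to 8.997 to 10.51 in Clip kidneys and 7.75 to 8.82 in ClipR-14 kidneys, against 5.49 to 6.61 in control kidneys, with 3 of 6 higher in Clip kidneys. Acta1, the skeletal muscle marker called higher, and Itgam, 1 of these 3 leukocyte markers, were well above background in Clip kidneys only. They passed the filter through that group, so their calls are descriptions and no support for these counts. For Casr, 4 markers of parathyroid and thyroid C cells were listed. Chga was not well above background on any array, and Pth and Gcm2 did not pass the detection filter. The remaining marker, Calca, was well above background on all 3 arrays of each group. Its Clip against control difference was 0.39 and did not pass (limma, adjusted p = 0.299). The part of these cell types in the members' changes was not tested.

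For each of the 7 members well above background on all 9 arrays, the genes nearest in pattern were found as the smallest root mean square difference of mean-centred log2 levels over the 9 arrays, among 11613 genes. The nearest to Calb1 were Vstm2a (0.124), Slc12a1 (0.225) and Mfsd4a (0.226), and to S100g they were Rhbg (0.123), Insrr (0.155) and Fam243 (0.17). To Slc8a1 the nearest were Ppp1r1a (0.142), Slc12a3 (0.168) and Slc2a4 (0.179). Casr was nearest to Cabcoco1 (0.0966), Sema4g (0.102) and Wnk4 (0.109). Trpm7 was nearest to D630045J12Rik (0.0446), Cyb5b (0.0647) and Ndufaf6 (0.0659).

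Trpm6 was nearest to Tox3 (0.136), Arhgef19 (0.158) and Prelp (0.158). These 3 shared its order of groups, which follows from their choice by closeness on the same arrays and is no support for the Trpm6 calls. Their ClipR-14 against control differences were 0.82, 0.62 and 0.59, and their Clip against control differences -0.43, -0.58 and -0.70. No member was among the 3 nearest genes of another. All these patterns rest on the same 9 arrays and are descriptions.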

How the data were processed

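Total RNA of 9 whole left kidneys (500 ng each, per the labels) was labelled with Cy3 and hybridized to single-colour Agilent mouse arrays. Per the file headers, Feature Extraction 10.7.3.1 with protocol GE1_107_Sep09 read design 014868 from a G2505C scanner, and the grid names build mm9. Probe coordinates were not used. The deposited scanner files hold background-subtracted signal intensity per spot and other columns with flags, per the file headers, with no scaling between arrays. A deposited series table of log2 values was not used: of 8065 rows with values and a matching probe, 8059 lay within 0.02 (root mean square) of another probe's scanner values and 0 of their own. Its column medians run from -0.148 to 0.017, and how it was scaled or centred is not known.

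Each array held 45018 spots, of which 1639 were controls, and 41174 probes. The scale is log2 of intensity over the 75th percentile of that array (320 to 439), and repeat spots were averaged without outlier-flagged spots. RefSeq accessions gave a symbol to 26690 probes and 14484 kept their accession. Probes well above background on at least 3 of 9 arrays were kept, and the brightest per gene was taken, which gave 17742 genes (13017 with a symbol). A 3-group limma 3.58.1 fit in R 4.3.3 over all 9 arrays used empirical Bayes moderation and Benjamini-Hochberg adjustment within each comparison. The fit was tested on simulated data. The values are intensities, so the number of arrays limits the precision.

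The members and gene lists were chosen with earlier results of these data known. Genes named from the 4 lists are at most 2 that rose most and 2 that fell most among those called in Clip against control. Others named (S100a10, Atp2b1, Pcbd1, Fxyd2, Cnnm4, Cldn19, Vdr and Pth1r) were added after their values were seen. Nearest genes are the 3 smallest distances for each member. Those of Cldn16 are not reported here. Normexp (offset 50) was run on median signals, since the files hold no mean signal column, and is an alternative chosen after seeing the data in that respect.

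The 3 slides each held 1 array of every group, and the slide with Untreated 1 was scanned on another date. Deviations from group means correlated at 0.161 to 0.282 between arrays of different groups on 1 slide and at -0.239 to 0.00291 across slides. Clip and ClipR-14 replicate numbers follow the slides (same-number correlations 0.22, 0.269 and 0.269). Untreated 1 shares its number with arrays of another slide (-0.209 with both Clip 1 and ClipR-14 1), so the numbers do not pair control kidneys.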

Additional observations from a re-analysis of the deposited data

How the results depend on the processing

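Each result was recomputed under up to 19 alternatives: normexp, quantile normalization, other detection filters, mean of probes, Sham alone as control, 2 groups only, slide, scan date or replicate number as a block, and each array left out. Sham alone as control and Untreated 1 left out are the same fit, counted as 2 of the 19. All 9 member calls of lower level in Clip kidneys except Trpm6, Cldn16 and Casr held in every alternative that could be run. The count of members higher in Clip against control was 0 in place of 1, and of members lower in ClipR-14 against Clip 0 in place of 1, with the filter on all 9 arrays, which removes Trpv5. It removes Pvalb and Tmem207 too. Members higher in ClipR-14 against control numbered 0 in place of 1 under normexp, quantile normalization, no filter, Sham alone and 2 groups only, and 0 to 0 with 1 array left out. List genes higher in ClipR-14 against control numbered 0 in place of 1 under normexp, no filter and 2 groups only, 2 (Trpv6 and Anxa2) with the all-array filter or with slide, scan date or replicate block, and 0 to 1 with 1 array left out. List genes lower there numbered 1 in place of 0 with scan date as a block, and 0 to 1 with 1 array left out.

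Signs turned in 14 cases. Trpm6 in Clip against control was 0.27 under normexp. The rest were ClipR-14 against control differences near 0: Cldn16 was 0.10 with Sham alone and 0.014 with the replicate block, and ranged from -0.19 to 0.10 with 1 array left out. Such ranges were -0.030 to 0.50 for Trpv5, -0.072 to 0.27 for S100g, -0.19 to 0.073 for Pvalb and -0.16 to 0.43 for Tmem207.

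The replicate block changed no member call (Trpm6 in ClipR-14 against control 0.85, adjusted p = 0.0479), and slide as a block changed none. Normexp moved the median of all genes in Clip against control from -0.09 to 0.10. It gave smaller changes for the dim members and reversed Trpm6 there. The offset of 50 added to every signal makes changes of dim genes smaller by construction. Its part in these values was not tested. The fitted changes of Pvalb and Tmem207 under normexp lie below their bounds. Those bounds are given for the main background correction only, and normexp with this offset is no test of them.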
